A study of Homo sapiens with 22 samples.

Results

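The 9 genes NCKAP5, BLID, LIMCH1, SPOCK1, DIPK2B, USP25, SLC4A3, HEMK2 and METTL15 were chosen, out of 19974 protein-coding genes. They were selected on a high count of open chromatin regions found in HFFc6 fibroblasts and not in H1 embryonic stem cells. For that choice each region went to whichever protein-coding gene had the nearest end, so the excess of HFFc6-only regions at these genes is a property of the selection and not a result. Every region of 4 deposited lists that overlapped the RefSeq body of a member, or the 200 kb on either side of it, was then taken up. These 9 windows did not overlap each other and covered 6.42 Mb. They held 640 of the 155746 HFFc6 ATAC regions, 351 of the 189982 H1 ATAC regions, 223 of the 82297 HFFc6 CTCF regions and 209 of the 104785 regions of a CTCF list named for hESC.

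HFFc6 cells are a subclone of human foreskin fibroblasts immortalised with telomerase, and H1 cells are human embryonic stem cells. The transposase Tn5 cuts accessible DNA in ATAC-seq, which came from 8 HFFc6 and 2 H1 libraries. The ATAC titles carry R and T labels of unstated meaning, and separate cultures are not stated. Cut&Tag for CTCF, in which an antibody directs Tn5 to a bound protein, came from 2 HFFc6 libraries whose titles begin with HFF1. No treatment is named for these groups. The hESC-named CTCF list is described by no label used here, and the other 10 of the 22 libraries (SMC1, H3K4me3 and H3K27ac in HFFc6) were not analysed here. Each list was 1 call for its group, so no list has replicates, read depth is unknown, and differences below are differences between lists without a test. Region width and peak confidence differed between the lists. The median width was 707 bp in HFFc6 ATAC and 301 bp in H1 ATAC, and 85.2% of HFFc6 against 48.4% of H1 ATAC regions reached a −log10 q of 10. Of 10 fibroblast marker genes, 7 had an ATAC region within 1 kb of an end in both lists, 2 in HFFc6 alone and 0 in H1 alone. Of 10 embryonic stem cell markers, 4 had one in both lists, 0 in HFFc6 alone and 5 in H1 alone. Of 6 markers of keratinocytes, endothelium and blood, 1 had one in HFFc6 alone and 2 in H1 alone.

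Most cell-type-specific open chromatin lies away from promoters, in introns and between genes, where transcription factors of the lineage bind enhancers. CTCF is a zinc-finger protein that anchors chromatin loops and binds many of its sites in most cell types. Because Cut&Tag also cuts with Tn5, strongly open DNA can add to a CTCF list; this was not tested. Assignment by the nearest gene end favours genes that are long or that border DNA with no other protein-coding gene.

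In the assignment behind the selection, NCKAP5 had 106 HFFc6-only and 36 H1-only regions, a difference of 70. BLID had 60 HFFc6-only against 10 H1-only regions, LIMCH1 61 against 12, DIPK2B 49 against 7, and SPOCK1 82 against 40. HEMK2 had 69 HFFc6-only against 31 H1-only regions, SLC4A3 64 against 26, USP25 69 against 31 and METTL15 74 against 37. At the edge of the selection, METTL15 and the non-member AKAP6 (49 against 12) both had a difference of 37. Just outside lay LOC124904970 (48 against 12) and ZNF33B (42 against 6), both with 36, and FMN1 (50 against 15) with 35. ID2, with 83 against 36, had a larger difference than 6 of the members and is not among them.

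Counted within the fixed windows, the lead of HFFc6 over H1 varied from gene to gene. The window of NCKAP5, which encodes a protein that binds the adaptor NCK, held 118 HFFc6-only and 44 H1-only ATAC regions, and 38 HFFc6 regions shared with H1. The window of BLID, an intronless gene for a small protein that induces cell death, held 47 HFFc6-only and 8 H1-only regions, and 10 shared. LIMCH1, whose product binds actin and activates non-muscle myosin, had 74 HFFc6-only and 27 H1-only regions, and 23 shared. BLID thus had the widest lead of the 9 as a ratio, and NCKAP5 as a difference.

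SPOCK1, the gene of the secreted proteoglycan testican, had 83 HFFc6-only and 39 H1-only regions in its window, and 13 shared. DIPK2B, a member of a family of divergent protein kinases, had 19 HFFc6-only and 6 H1-only regions, and 3 shared. USP25, a deubiquitinating enzyme, had 36 HFFc6-only and 11 H1-only regions, and 5 shared. DIPK2B had the fewest HFFc6-only regions of the 9 although its assigned count was 49.

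SLC4A3, an exchanger of chloride and bicarbonate, had 25 HFFc6-only and 17 H1-only regions, and 24 shared. HEMK2, a methyltransferase that acts on a translation release factor, had 49 HFFc6-only and 19 H1-only regions, and 11 shared. METTL15, which methylates mitochondrial ribosomal RNA, had 49 HFFc6-only and 26 H1-only regions, and 13 shared. HFFc6-only regions outnumbered H1-only regions in 9 of 9 windows, against 50.9% of all protein-coding genes. They were at least 2 times as many in 7 of 9, against 15.6% of all protein-coding genes. SLC4A3, at a ratio of 1.47, and METTL15, at 1.88, fell short of that ratio. Both shares rest on the contrast that chose the genes, and nothing is read from them.

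**Figure D1:**
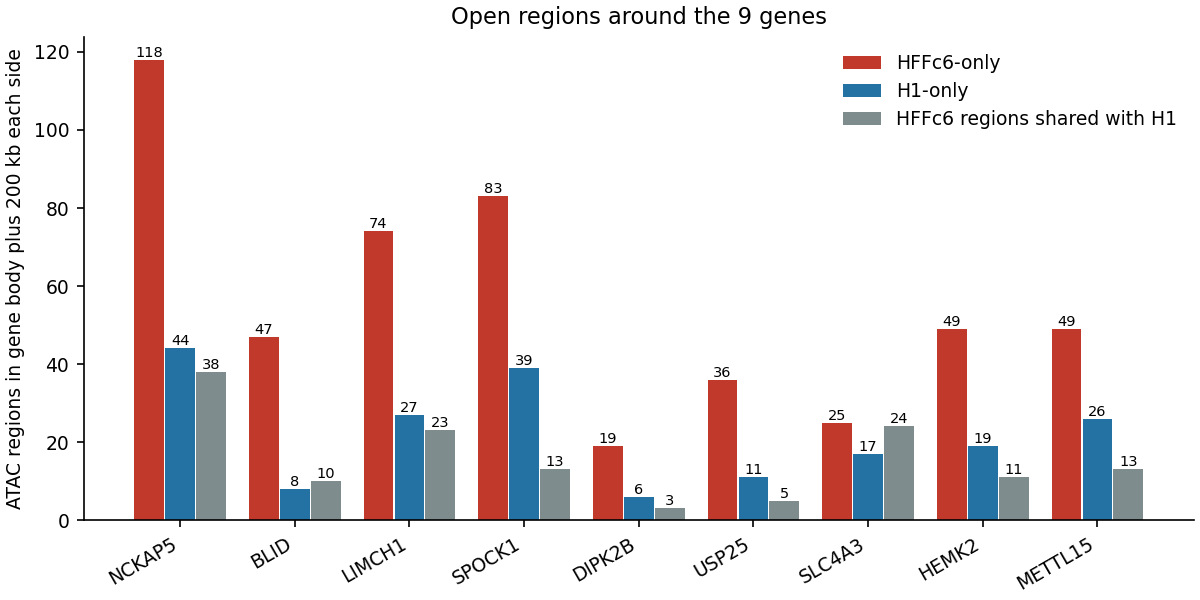
Number of ATAC regions (vertical axis) in the body of each gene plus 200 kb on each side, for regions found in HFFc6 only (red), in H1 only (blue) and HFFc6 regions shared with H1 (grey), 1 list per cell line. HFFc6-only regions range from 19 at DIPK2B to 118 at NCKAP5 and exceed H1-only regions at every gene, with the narrowest gap at SLC4A3 (25 against 17).

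The members had a median body of 310 kb, against 24.2 kb over all protein-coding genes, although BLID (0.876 kb) and SLC4A3 (14.3 kb) were shorter than that median. Counts were therefore also set per megabase of window. The genes were chosen by these same regions, so the medians and percentiles that follow are descriptions from which nothing is read. The median was 69.0 HFFc6-only regions per Mb over the members, against 39.3 over all protein-coding genes. The median of H1-only regions was 31.4 per Mb over the members, against 39.2 over all. BLID had 117 HFFc6-only regions per Mb, LIMCH1 99.9, SPOCK1 89.8 and NCKAP5 84.1, and each stood above the 98th percentile of all protein-coding windows. HEMK2 had 69.0 per Mb, USP25 65.4, SLC4A3 60.3 and METTL15 59.5. DIPK2B, with 42.0 per Mb, stood at percentile 55.3, close to the middle of all genes.

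The selection favours a low shared share of HFFc6 regions and bears on that of H1 regions, so these shares are descriptions from which nothing is read. Of the 640 HFFc6 ATAC regions, 140 (21.9%, 95% Wilson interval 18.8 to 25.2) overlapped an H1 region, against 34.7% of the whole HFFc6 list. Of the 351 H1 regions, 154 (43.9%, interval 38.8 to 49.1) overlapped an HFFc6 region, against 31.8% of the whole H1 list. Intervals here and below cover counting error only. The share of HFFc6 regions also found in H1 was lowest at USP25, 12.2% (interval 5.32 to 25.5), and highest at SLC4A3, 49.0% (interval 35.6 to 62.5). SLC4A3 was the one member above the share of the whole list. The confidence of the calls differed in the same direction as in the full lists. A −log10 q of at least 10 was reached by 425 of the 500 HFFc6-only regions (85.0%) and by 77 of the 197 H1-only regions (39.1%).

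Within a window, HFFc6-only regions were spread over most of its length. Of the 62 full bins of 100 kb, 53 held more HFFc6-only than H1-only regions, 5 held fewer and 4 held equal numbers. The shorter bin at the high end of each window is left out of this count. The count rests on the contrast that chose the genes, and none for other genes stands beside it. In NCKAP5, 84 of the 118 HFFc6-only regions lay in the gene body, 13 on its low-coordinate side and 21 on its high-coordinate side. LIMCH1 and SPOCK1 were alike in this, with 53 of 74 and 57 of 83 in the body. HEMK2 had 23 of 49 in the body and METTL15 20 of 49. BLID, whose body is 0.876 kb long, had 0 in the body, 21 on the low side and 26 on the high side.

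At SLC4A3 the lead of HFFc6 came from 1 side. It had 5 HFFc6-only against 12 H1-only regions on its low side, where 9 other protein-coding genes lie in the window, and 19 against 5 on its high side, where no protein-coding gene lies. At METTL15 and USP25 the lead lay on both sides more than in the body. METTL15 had 20 HFFc6-only against 18 H1-only regions in its body, and 13 against 4 and 16 against 4 on its low and high sides. USP25 had 13 against 9 in its body, with 12 against 1 and 11 against 1 on the sides.

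The densest 100 kb bin was in LIMCH1, at the low end of the gene, with 19 HFFc6-only and 6 H1-only regions. The densest bin at BLID held 18 HFFc6-only and 1 H1-only. The bins of NCKAP5 (11 against 2), HEMK2 (11 against 1), METTL15 (11 against 2) and USP25 (10 against 1) were similar to each other. SPOCK1 reached 14 against 6, SLC4A3 9 against 4 and DIPK2B 5 against 0. By number of regions, the longest stretch of HFFc6-only regions with no H1 region between them was at BLID, where 14 followed each other over 56.0 kb. LIMCH1, USP25 and HEMK2 each had a stretch of 10, over 36.5, 75.9 and 37.0 kb. Among the 9 stretches with most regions at each gene, the one that spanned most DNA was at DIPK2B, with 6 regions over 164 kb.

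**Figure D2:**
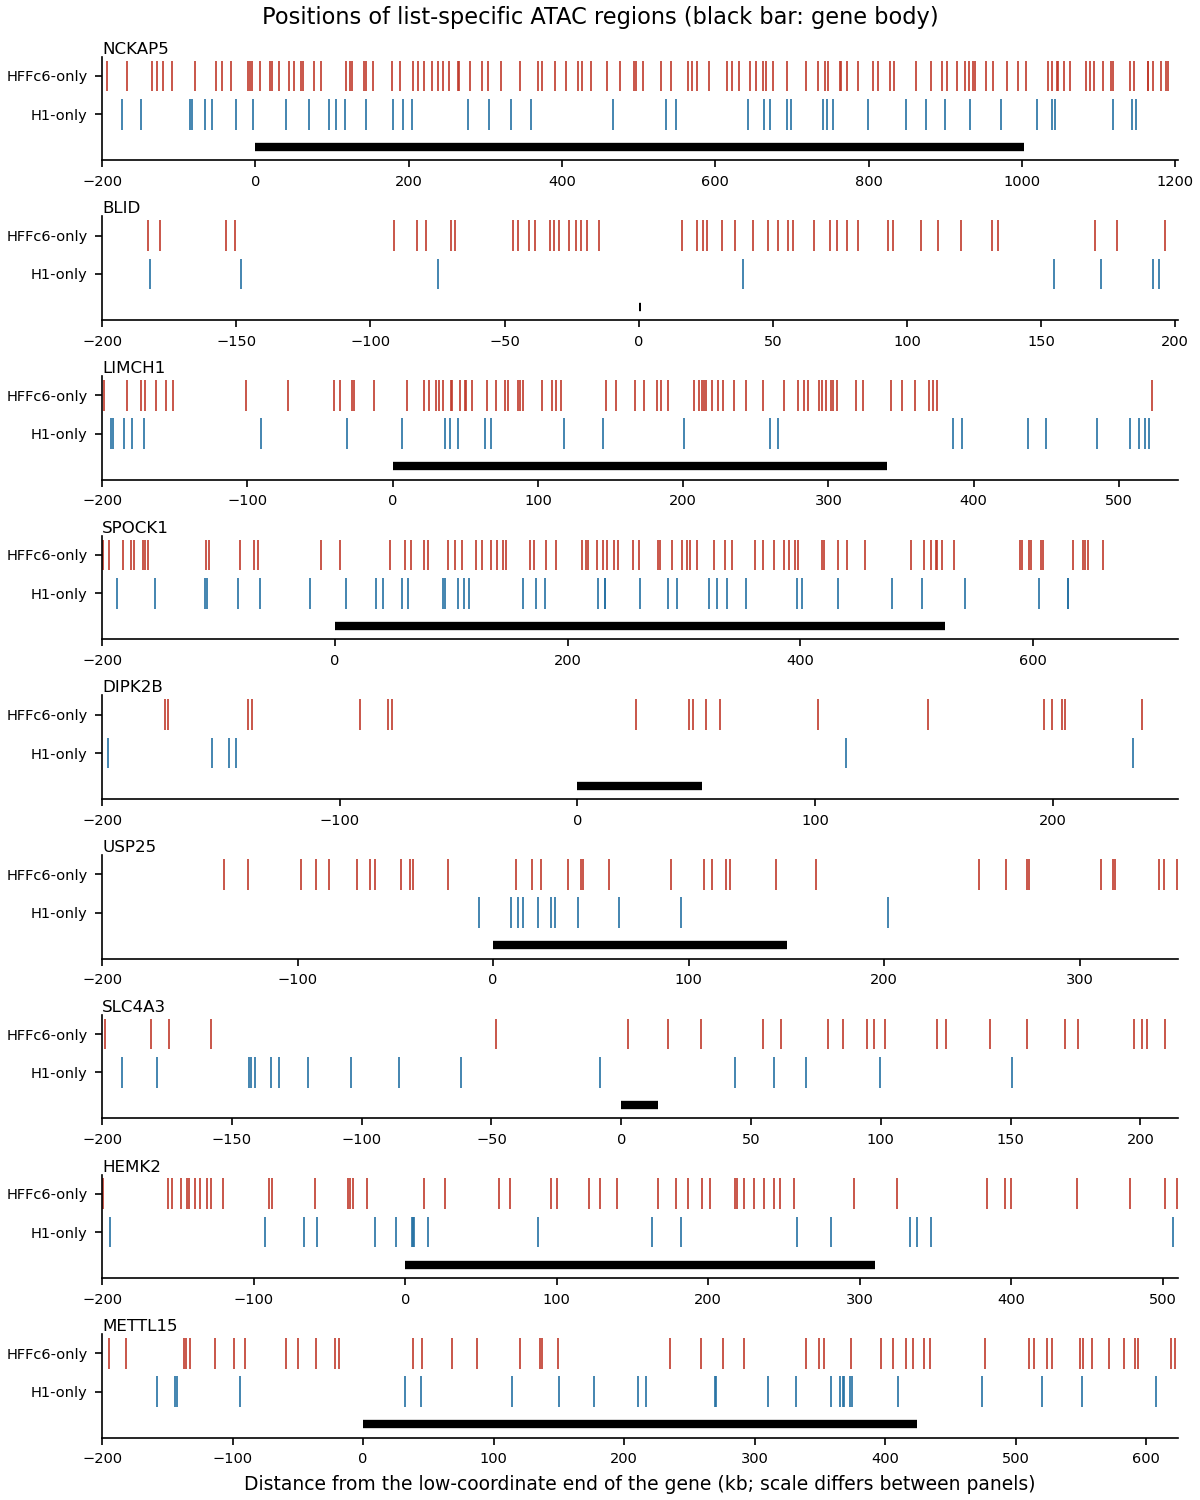
Positions of HFFc6-only (red, upper row) and H1-only (blue, lower row) ATAC regions along each window, in kb from the low-coordinate end of the gene, whose body is the black bar; the scale differs between panels. HFFc6-only regions run through the bodies of NCKAP5, LIMCH1 and SPOCK1 and on both sides of BLID, while H1-only regions at SLC4A3 gather on the low side (12, against 5 HFFc6-only).

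At a limit of 1 kb, the members' own outer ends did not carry the difference. Of the 18 gene ends, 11 had an ATAC region within 1 kb in both lists, 7 had none in either, and 0 had an HFFc6-only or an H1-only region. NCKAP5, BLID and SLC4A3 were open at both ends, and LIMCH1, SPOCK1, USP25, HEMK2 and METTL15 at 1 end. DIPK2B was open at neither. Over all genes in the windows, 16 of the 500 HFFc6-only regions (3.20%, interval 1.98 to 5.13) lay within 1 kb of a gene end (protein-coding or lncRNA), against 7.13% of all HFFc6-only regions. Of the 140 shared regions 26 did so (18.6%, interval 13.0 to 25.8), against 30.2% of all shared regions. Of 22 other protein-coding genes that reach into the windows, 18 had an open end in both lists, 2 in HFFc6 alone and 1 in H1 alone, and 1 had none in either. Of 28 lncRNA genes, 8 had one in both lists, 9 in HFFc6 alone and 1 in H1 alone, and 10 had none in either. No share over all genes stands beside the counts of members' ends or of neighbours, so nothing particular to these windows is read from them.

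RefSeq promoter sequences (GRCh38.p14, from 250 bases before to 50 after a start) were found for 6 of the 9 members, with 9 promoters in all. The promoters of USP25, HEMK2 and METTL15 overlapped ATAC and CTCF regions in all 4 lists. NCKAP5 and SLC4A3 each had a start inside the gene that overlapped an HFFc6-only ATAC region and no H1 region. The NCKAP5 start lay 106.4 kb inside the gene and its region had a fold enrichment of 7.58, as MACS2 gives it, signal divided by background. It also overlapped a CTCF region found in the hESC-named list alone, at 4.39. The SLC4A3 start lay 3.4 kb inside the gene, at 4.27. At LIMCH1, the outermost of 4 starts overlapped no HFFc6 ATAC region and an H1 region of 7.85, which reaches an HFFc6 region beyond the promoter window, while the other 3 starts overlapped a region in both lists. Sequences follow for the internal starts of NCKAP5 and SLC4A3, the outermost start of LIMCH1 and the start of USP25. The last of these was open in both lists. Motif matches are in capitals.
NCKAP5 internal start, chr2:133568414-133568713, minus strand: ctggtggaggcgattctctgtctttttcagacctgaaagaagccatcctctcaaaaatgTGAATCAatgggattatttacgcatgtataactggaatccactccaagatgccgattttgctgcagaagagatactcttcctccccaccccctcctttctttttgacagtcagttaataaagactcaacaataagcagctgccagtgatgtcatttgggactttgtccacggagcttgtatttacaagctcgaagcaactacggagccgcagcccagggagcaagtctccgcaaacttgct
SLC4A3 internal start, chr2:219630807-219631106, plus strand: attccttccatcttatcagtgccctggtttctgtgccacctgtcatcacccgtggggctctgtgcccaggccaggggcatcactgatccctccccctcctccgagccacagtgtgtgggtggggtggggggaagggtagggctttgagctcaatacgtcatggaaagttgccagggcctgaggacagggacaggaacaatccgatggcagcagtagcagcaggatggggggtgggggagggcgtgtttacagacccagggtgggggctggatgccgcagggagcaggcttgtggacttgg
LIMCH1 outermost start, chr4:41359357-41359656, plus strand: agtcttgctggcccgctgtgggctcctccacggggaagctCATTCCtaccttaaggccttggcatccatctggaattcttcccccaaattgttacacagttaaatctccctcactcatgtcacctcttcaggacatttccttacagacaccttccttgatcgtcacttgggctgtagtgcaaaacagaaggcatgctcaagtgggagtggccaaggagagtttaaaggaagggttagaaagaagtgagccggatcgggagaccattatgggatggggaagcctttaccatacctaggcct
USP25 start, chr21:15729732-15730031, plus strand: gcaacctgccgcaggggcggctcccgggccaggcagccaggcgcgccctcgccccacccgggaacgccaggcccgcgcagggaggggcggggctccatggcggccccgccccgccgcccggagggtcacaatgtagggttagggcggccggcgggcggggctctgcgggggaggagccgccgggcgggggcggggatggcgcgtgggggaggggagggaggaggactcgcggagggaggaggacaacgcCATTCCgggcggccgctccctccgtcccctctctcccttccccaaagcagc
Motifs were searched on both strands as TGANTCA (AP-1), GGAATG (TEAD), TGTGGTT (RUNX), ATGCAAAT (octamer) and the CTCF core. The NCKAP5 promoter had an AP-1 match that began at −191 from the start, and the LIMCH1 and USP25 promoters had a TEAD match at −210 and −1. SLC4A3 had no match in this window. Of the 9 member promoters, 1 held AP-1, 3 TEAD, 1 RUNX, 0 the octamer and 0 the CTCF core. Over 34943 RefSeq promoters of the same length, 7.72% held AP-1, 14.0% TEAD, 4.27% RUNX, 1.77% the octamer and 0.472% the CTCF core. The letters are a description of these windows and name no bound factor.

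The regions assigned to BLID lay mostly in another gene. MIR100HG, a lncRNA gene that hosts microRNAs of 3 families, spans chr11:122028329-122422871 and contains BLID. It held 49 of the 60 HFFc6-only regions assigned to BLID and 8 of the 10 H1-only regions. In the fixed window it held 42 of the 47 HFFc6-only ATAC regions and 6 of the 8 H1-only regions. Over its whole body MIR100HG held 53 HFFc6-only and 9 H1-only ATAC regions, and 16 HFFc6-only against 6 hESC-only CTCF regions. Its outermost start, outside the BLID window, overlapped an HFFc6-only ATAC region with a fold enrichment of 10.3. Of its 6 starts in the table, 2 overlapped an HFFc6-only ATAC region, 2 a shared one, 1 an H1-only region and 1 none. USP25 lies beside MIR99AHG (chr21:16070488-16631727), which hosts the related microRNAs of chromosome 21. MIR99AHG held 32 of the 69 HFFc6-only regions assigned to USP25 and 12 of the 31 H1-only regions, and 29 of those 32 lay beyond the window. Its outermost start overlapped an HFFc6-only ATAC region of 11.2 and an HFFc6-only CTCF region of 9.17. Of its 6 starts, 4 overlapped an HFFc6-only ATAC region, 1 an HFFc6 region shared with H1, 0 an H1-only region and 1 none. The outermost start and those 34 and 626 bp inside it all gave 11.2, so the 4 are not separate regions. No share over all promoters stands beside the counts of starts.

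The microRNAs of these hosts are shown because both host genes hold members of the same 3 families. Each mature sequence is from RefSeq, with its seed, bases 2 to 8, in capitals.
miR-100-5p (chromosome 11): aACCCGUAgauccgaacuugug
miR-99a-5p (chromosome 21): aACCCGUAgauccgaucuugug
let-7a-5p (chromosome 11): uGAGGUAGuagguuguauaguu
let-7c-5p (chromosome 21): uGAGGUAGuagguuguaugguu
miR-125b-5p (chromosomes 11 and 21): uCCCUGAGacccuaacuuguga
Within each family the seed was the same on both chromosomes. Counted from 1 at the 5′ end, miR-100 and miR-99a differed at A16U, let-7a and let-7c at A19G, and the miR-125b copies at 0 positions. On chromosome 11, the MIRLET7A2 gene lay inside an HFFc6-only ATAC region (fold enrichment 4.64), with the nearest H1 region 7598 bp away. MIR125B1 lay 400 bp from an HFFc6-only ATAC region and 1911 bp from the nearest H1 region, and an HFFc6-only CTCF region overlapped it. MIR100 lay 555 bp from an HFFc6-only ATAC region and 1883 bp from an H1 region. The chromosome 21 genes lie outside the USP25 window, and their nearest HFFc6 ATAC regions were at 1429 bp from MIR99A and 1495 bp from MIRLET7C, both HFFc6-only. The nearest H1 regions were at 4338 and 5077 bp. At MIR125B2 the nearest HFFc6 region, at 829 bp, was shared with H1. No RNA was measured in these lists, so they give no level of any of these microRNAs.

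How far the assigned regions lay from their gene varied by degrees between the members. Of the 634 HFFc6-only regions assigned to the 9 genes, 431 (68.0%) lay in the windows. All 61 of LIMCH1 did, as did 105 of 106 of NCKAP5, 72 of 82 of SPOCK1 and 47 of 60 of BLID. At the other end, DIPK2B had 12 of 49 in its window, SLC4A3 20 of 64, METTL15 36 of 74, USP25 36 of 69 and HEMK2 42 of 69. At several members the assigned regions, inside and beyond the window together, lay mostly on 1 side. SLC4A3 had 63 of 64 on its high side, the farthest 885.8 kb away, and DIPK2B 46 of 49 on its high side, the farthest 606.9 kb away. METTL15 had 54 of 74 on its high side and HEMK2 45 of 69 on its low side. USP25 had 43 of 69 on its high side and 13 on its low side. BLID was nearer to even, with 33 on its high side and 27 on its low side.

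When lncRNA genes were allowed to compete for the nearest end, 200 of the 634 HFFc6-only regions and 78 of the 230 H1-only regions stayed with the members. BLID kept 33 HFFc6-only and 1 H1-only region, NCKAP5 40 and 14, and LIMCH1 27 and 7. SPOCK1 kept 29 HFFc6-only and 15 H1-only regions, HEMK2 24 and 10, and USP25 18 and 11. METTL15 kept 20 HFFc6-only and 18 H1-only regions, DIPK2B 6 and 1, and SLC4A3 3 and 1. The lead over H1 at METTL15 and SLC4A3 was then 2 regions each.

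**Figure D3:**
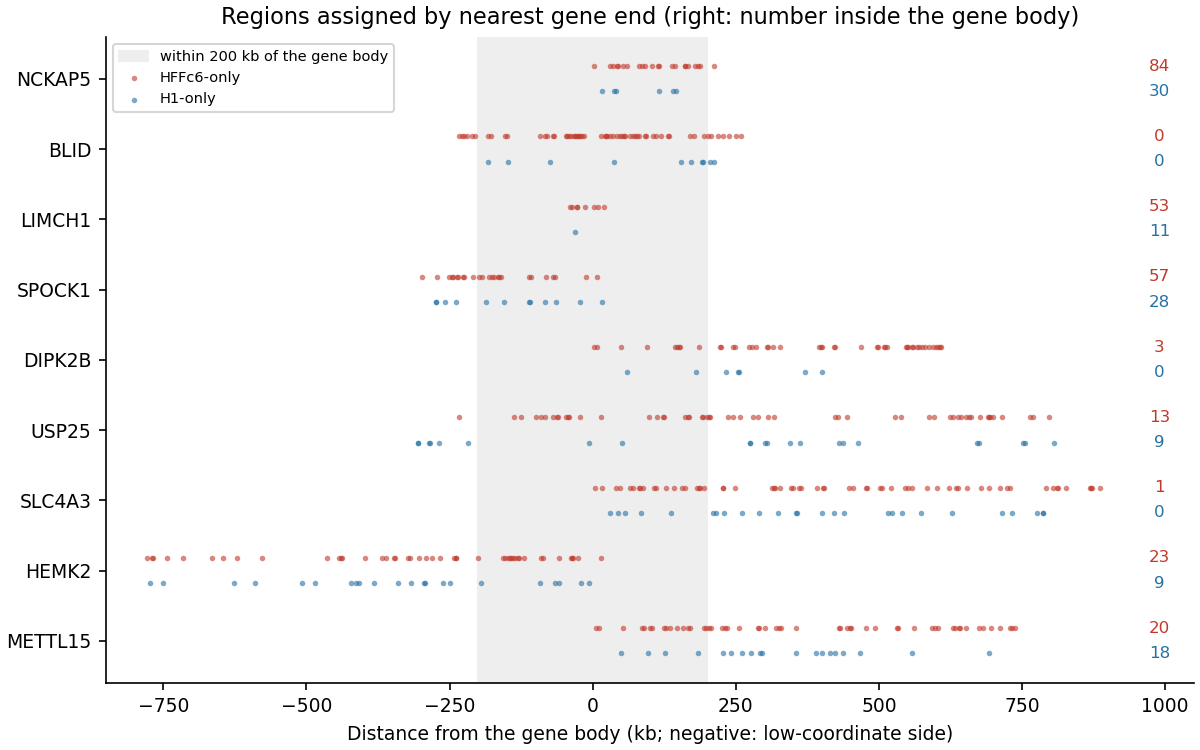
Distance in kb from the gene body (horizontal axis, negative on the low-coordinate side) of each HFFc6-only (red, upper row) and H1-only (blue, lower row) ATAC region assigned to a gene by nearest protein-coding end; the numbers at the right count regions inside the body and the grey band marks 200 kb on either side. Regions of NCKAP5, LIMCH1 and SPOCK1 stay in or near the band, while those of DIPK2B, SLC4A3 and METTL15 reach beyond 600 kb on the high side.

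CTCF was measured in other libraries than those used to choose the genes, but the selection still bears on it. Of the HFFc6-only CTCF regions in the windows, 94.7% lay in HFFc6 ATAC regions. HFFc6 did not lead in every window. HFFc6-only CTCF regions outnumbered regions found only in the hESC-named list in 5 of 9 windows, against 37.6% of all protein-coding genes. Nothing is read from that contrast. HEMK2 had 25 HFFc6-only against 2 hESC-only CTCF regions, BLID 19 against 6, SPOCK1 33 against 22, METTL15 12 against 7 and USP25 9 against 8. DIPK2B had 1 against 1. At LIMCH1 the CTCF lists ran the other way from the ATAC lists, with 10 HFFc6-only against 32 hESC-only CTCF regions. SLC4A3 had 12 against 19 and NCKAP5 12 against 20. These leads of the hESC-named list depended on the processing under some settings. At LIMCH1 the difference of −22 became 0 at a −log10 q of at least 10 and −10 when the longer list was cut to the length of the other. At equal lengths the difference at SLC4A3, −7 as deposited, became 0, and that at NCKAP5, −8 as deposited, became 1 in favour of HFFc6. The list cut there was the hESC-named one, so its regions were lost by construction. Other settings kept the sign, with −7 at NCKAP5 at that q limit. With flanks of 50 kb it was −10 at NCKAP5 and −11 at LIMCH1. Leads of HFFc6 moved as well, at HEMK2 from 23 to 10 at that q limit. Shared CTCF regions numbered between 3 at DIPK2B and 22 at SLC4A3.

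The share of HFFc6-only open regions that carried HFFc6 CTCF also varied between the members. It was 49.0% at HEMK2 (24 of 49, interval 35.6 to 62.5), 42.2% at SPOCK1 (35 of 83, interval 32.1 to 52.9) and 36.2% at BLID (17 of 47, interval 24.0 to 50.5). It was 9.32% at NCKAP5 (11 of 118, interval 5.28 to 15.9) and 12.2% at LIMCH1 (9 of 74, interval 6.53 to 21.5). These highest and lowest members were picked after their values were seen. Regions of a single list are not replicates, and the difference was not tested. USP25 (11 of 36, 30.6%), SLC4A3 (6 of 25, 24.0%), METTL15 (10 of 49, 20.4%) and DIPK2B (2 of 19, 10.5%) lay between or had wide intervals. Over all members it was 125 of 500, 25.0% (interval 21.4 to 29.0), against 30.1% of all HFFc6-only ATAC regions. Without the NCKAP5 window it was 114 of 382, 29.8%. Among shared ATAC regions 75 of 140 carried HFFc6 CTCF (53.6%, interval 45.3 to 61.6), against 69.8% of all shared regions. That share was 26.3% at NCKAP5 (10 of 38) and 90.9% at HEMK2 (10 of 11), so NCKAP5 was low and HEMK2 high in both classes.

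**Figure D4:**
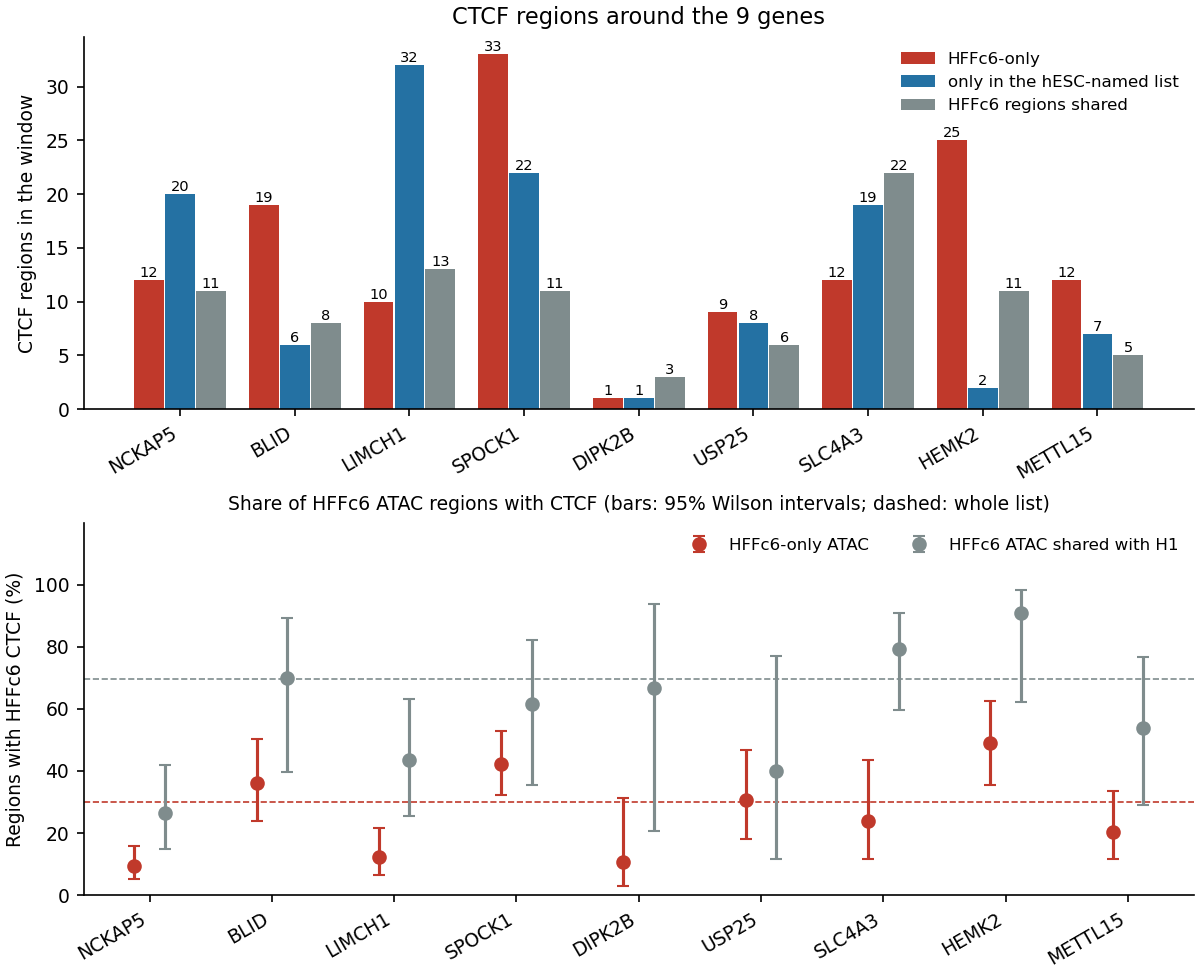
Upper panel, number of CTCF regions per window found in HFFc6 only (red), in the hESC-named list only (blue) and HFFc6 regions shared with it (grey). Lower panel, percent of HFFc6-only (red) and shared (grey) HFFc6 ATAC regions that overlap an HFFc6 CTCF region, with 95% Wilson intervals and dashed lines at the whole list (30.1% and 69.8%); LIMCH1 has 10 HFFc6-only against 32 hESC-only CTCF regions, and HEMK2 25 against 2.

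Read from the side of CTCF, 126 of the 133 HFFc6-only CTCF regions lay in HFFc6 ATAC regions (94.7%, interval 89.5 to 97.4), against 87.1% of all HFFc6-only CTCF regions. Of the same 133, 10 lay in H1 ATAC regions (7.52%, interval 4.14 to 13.3), against 18.2% of all. Of the 117 hESC-only CTCF regions, 72 lay in H1 ATAC regions (61.5%, interval 52.5 to 69.9), against 64.7% of all. However, 34 of those 117 lay in HFFc6 ATAC regions (29.1%, interval 21.6 to 37.8), against 14.4% of all hESC-only CTCF regions. The members hold more HFFc6 ATAC regions by selection, which bears on all of these shares. HFFc6-only ATAC regions with CTCF had a median fold enrichment of 9.27 and a median width of 965 bp. Those without CTCF had medians of 4.37 and 566 bp. Over the whole list the same medians were 9.76 and 892 bp with CTCF and 4.18 and 527 bp without.

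The HFFc6-only ATAC region of highest fold enrichment in each window is given as the authors' value. At NCKAP5 it was chr2:133200723-133201687, in the gene body, at 21.9. At METTL15 it was chr11:28146015-28146672, in the body, at 20.2. At SPOCK1 it was chr5:137470117-137471292, in the body, at 18.0. HEMK2 also had it in the body, at chr21:28714754-28715875 and 17.2. Outside the body, USP25 had it 22604 bp below its low end, at chr21:15706625-15707378 and 18.9, and LIMCH1 9691 bp above its high end, at chr4:41709735-41710686 and 14.2. That of BLID, chr11:122234983-122236153 at 16.7, lay in MIR100HG, and that of SLC4A3, chr2:219469128-219469788 at 13.5, in the body of SPEG, a kinase gene of striated muscle. That of DIPK2B, chrX:45344296-45345085 at 11.8, lay between genes. All but that of DIPK2B overlapped an HFFc6 CTCF region, and none overlapped a region of the hESC-named list. Over the whole list, HFFc6-only ATAC regions with CTCF were also stronger (median 9.76) than those without (4.18). Of all HFFc6-only ATAC regions, with or without CTCF, 5.59% overlapped the hESC-named list. The share among those with CTCF was not computed. The strongest regions of other windows were not counted, so this is not read as particular to these genes. Whether the named regions fall in exons or introns was not told apart.

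The HFFc6-only CTCF region of highest fold enrichment was strongest at METTL15, where chr11:27926618-27927463 reached 13.5, and at SPOCK1, where chr5:137415048-137415671 in the gene body reached 12.1. In each of the 9 windows this region overlapped an HFFc6 ATAC region, against 87.1% of all HFFc6-only CTCF regions. None overlapped an H1 ATAC region, against 18.2% of all that did. At BLID the region lay inside the strongest HFFc6-only ATAC region, in MIR100HG. At USP25 it covered the start of MIR99AHG, 189890 bp above the high end of USP25. The shared CTCF regions of highest fold enrichment ranged from 11.8 at USP25, on its own promoter, to 15.9 at HEMK2, at an end of its neighbour USP16. That of SPOCK1, at 14.8, covered the high end of the gene.

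Among neighbours, APBB2 beside LIMCH1 had 7 HFFc6-only against 5 H1-only ATAC regions in the window, and GPR39 beside NCKAP5 10 against 7. KDM6A, a histone demethylase gene beside DIPK2B, had 7 against 4. KIF18A, a mitotic kinesin gene beside METTL15, had 5 HFFc6-only against 0 H1-only, KLHL3 beside SPOCK1 4 against 0, and LTN1 beside HEMK2 3 against 0. SPEG, beside SLC4A3, had 3 against 6. Among lncRNA genes, LOC105374423 inside LIMCH1 had 8 HFFc6-only against 1 H1-only, and LINC02758 beside METTL15 10 against 3. NCKAP5-AS1, inside NCKAP5, had 2 against 0.

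The protein-coding genes whose windows were most like the members' median profile were ACTR3, CSNK1G3 and ACTBL2, at distances of 0.395, 0.400 and 0.439. The distance was Euclidean over 6 classes of region, on log2 of regions per Mb plus 1. ACTR3 had 31 HFFc6-only and 16 H1-only ATAC regions, CSNK1G3 29 and 17, and ACTBL2 23 and 11. The members themselves lay between 0.973 (USP25) and 3.86 (DIPK2B) from their own median. ACTR3, CSNK1G3 and ACTBL2 were picked for the smallest distances among protein-coding genes, so larger distances at the members were nearly fixed in advance. No typical distance over all genes stands beside these values, so whether the 9 windows share 1 profile is not read from them.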

How the data were processed

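The 4 deposited peak lists used are on hg38, and BWA, MACS2 and bedtools are named in the submitters' processing notes. Versions, filters, controls and any Tn5 offset: not given in the sources used here. For each peak the authors deposited a score (not used), a fold enrichment, which is a ratio of signal to background, a −log10 q-value and a summit offset. Every list stopped at a q of 0.05. Counts of reads are not in the lists, so depth is unknown, and each list is 1 call for its group.

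Regions on chromosomes 1 to 22 and X were compared in Python 3.11.15 (numpy 2.4.6, pandas 2.3.3, scipy 1.17.1). An overlap of at least 1 bp counted as shared. Genes, promoters and microRNAs came from RefSeq tables of GRCh38.p14. The members, gene lists and motifs were chosen with earlier results of these data known. The named genes were the 9 members, their strongest regions and densest bins, the neighbours with most HFFc6-only regions, the microRNAs of the miR-99, let-7 and miR-125 families, the genes next to the selection limit and the 3 most alike. ID2, AKAP6, MIR222HG and the chromosome 21 and X microRNAs were named after their values were seen. No test was run. Alternatives varied the overlap, the q limit, the flank, the list length, the region width, the distance to an end and the genes that compete. Overlap, window and nearest-end steps were tested on simulated data, with 0 disagreements.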

Additional observations from a re-analysis of the deposited data

How the results depend on the processing

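HFFc6-only ATAC regions outnumbered H1-only regions at 9 of 9 genes, or at 8 with the gene body alone, where BLID has none. Of the differences per gene under 6 alternatives, 0 reversed for ATAC but 19 moved by over 1.5 times or to 0, among them SLC4A3 from 8 to 19 and METTL15 from 23 to 38 at a −log10 q of at least 10. For CTCF 23 moved and 1 reversed, at NCKAP5, where −8 became 1 at equal list lengths. The CTCF difference was 0 at LIMCH1 at that q limit, and 0 at SLC4A3 at equal lengths and in the body alone. The share of HFFc6 ATAC regions shared with H1 was 16.9% at that q limit and 18.3% as the median of the members. The share of HFFc6-only regions with CTCF was 18.6% at that q limit, 21.2% with flanks of 50 kb, 19.3% in gene bodies alone and 29.8% without the NCKAP5 window, an alternative chosen after seeing the data. The share near a gene end was 1.57% in bodies alone and 6% at 2 kb. The share of assigned regions inside the window was 48.6% at 50 kb, 40.1% in bodies alone, 61.7% without NCKAP5 and 100% (200 of 200) with lncRNA genes competing. Members with more HFFc6-only than hESC-only CTCF regions numbered 3 in bodies alone and 6 at equal list lengths. Causes were not tested beyond what each setting fixes by construction. Unequal library numbers, widths and peak confidence limit every contrast between lists. No paired analysis was possible because each list is a single call.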

Other observations

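Several lncRNA genes beyond the windows held many of the regions assigned to members; they were chosen after their values were seen. MIR222HG, at chrX:45745214-45770267 and assigned to DIPK2B, held 7 HFFc6-only and 0 H1-only ATAC regions, and LINC01204 held 4 and 0. MIR222HG hosts a pair of microRNAs with 1 seed, shown in capitals.
miR-221-3p: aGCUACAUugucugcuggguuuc
miR-222-3p: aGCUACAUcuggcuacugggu
MIR222 lay 922 bp from an HFFc6-only ATAC region and 3653 bp from the nearest H1 region, and MIR221 1780 bp and 2795 bp. On the high side of SLC4A3, LOC105373893 held 26 HFFc6-only and 11 H1-only of its assigned regions, and LOC105373891 9 and 3. LINC02742, assigned to METTL15, held 8 and 6, and LINC01695, assigned to HEMK2, 7 and 4. Of the 203 assigned HFFc6-only regions beyond the windows, 64 (31.5%) overlapped an HFFc6 CTCF region, close to the 30.1% of all HFFc6-only ATAC regions. That share was 48.1% at HEMK2 (13 of 27), 45.9% at DIPK2B (17 of 37), 30.3% at USP25 (10 of 33) and 27.3% at SLC4A3 (12 of 44). It was 21.1% at METTL15 (8 of 38), 20% at SPOCK1 (2 of 10) and 15.4% at BLID (2 of 13). NCKAP5 had 0 of 1, and LIMCH1 had 0 regions beyond its window. The counts are small and the differences between members were not tested.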
